A study of Homo sapiens with 8 samples.

Results

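The genes described here are the feedback inhibitors and corepressors of SMAD signalling, chosen by gene name: SKI, SKIL, TGIF1, TGIF2, PMEPA1, LDLRAD4, SMURF1, SMURF2 and ZFYVE9. The choice was made with earlier results of these data known, so it is not independent of them. Of these 9 genes, 8 had at least 1 probe annotated to them, which gave 21 of 47315 probes and 8 of 20045 genes. LDLRAD4, a relative of PMEPA1, had no probe annotated to it in the table used and was not analysed here. The cells were A2058, an established human melanoma line, and RNA from 8 wells was hybridised to Illumina HT-12 arrays. All 8 wells had been transfected with an empty expression plasmid, so the controls carried it too. The treated group held 4 wells given TGFβ1 and the control group 4 wells labelled control vehicle, which the sample titles call untreated. The methods state serum-free medium and 24 h of exposure. They name a pair of TGFβ1 doses, 5 and 10 ng/ml, and do not assign them to wells. The wells were separate but of 1 line, 1 passage and 1 day of plating, so a p-value covers only how much such wells vary.

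TGFβ ligands bind a pair of receptor kinases that phosphorylate SMAD2 and SMAD3, which join SMAD4 and enter the nucleus to act on target genes. The pathway limits itself at several levels, because inhibitory SMADs, ubiquitin ligases and membrane proteins act on receptors and SMADs, while SKI, SKIL and the TGIF proteins recruit histone deacetylases to SMAD-bound DNA. Several of these inhibitors are themselves known targets of the pathway. In melanoma, SKI and SKIL are known for high protein levels and TGFβ for growth inhibition and for invasion.

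The deposited values are log2 values centred on each probe's mean over the 8 arrays, so a value of 0 is the mean of all wells. With 4 wells in each group the 2 group means of a probe mirror each other around 0, and no absolute level is kept. Levels therefore could not be compared between genes, and marker genes could be read only for change. In bulk RNA of this kind, fewer cells with a transcript and less of it per cell cannot be told apart. The SD over all probes ran from 0.120 to 0.160 between arrays, highest in TGFβ1 replicate 4, and the array medians lay between −0.00504 and −0.00147. TGFβ1 replicate 4 was also the array least like any other. Its highest correlation with another array over the centred values was 0.056, where the other arrays reached 0.122 to 0.160.

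A pair of TGIF1 probe sequences is shown because these 2 probes carried most of the TGIF1 rise while others of the same gene did not move. Both are 50 bases long and lie 233 bases apart on the plus strand of chromosome 18, at 3447640 to 3447689 for ILMN_2318643 and 3447873 to 3447922 for ILMN_2318638. The build of these positions is not given in the sources used here, and the exons they fall in were not looked up. PMEPA1 probes from the same source lie from 55657046 to 55718378 on chromosome 20, outside that gene's GRCh38.p14 span of 57648396 to 57711472. The probe positions are therefore not on GRCh38 and cannot be set beside the GRCh38.p14 coordinates given below.
TGIF1 ILMN_2318643: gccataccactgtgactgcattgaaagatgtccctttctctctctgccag
TGIF1 ILMN_2318638: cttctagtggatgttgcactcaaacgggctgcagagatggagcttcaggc

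Promoter sequence is shown for the 3 genes whose mean over probes passed the test, because CAGAC is the short element that SMAD3 and SMAD4 are known to bind. Each run holds the 250 bases before a RefSeq transcript start on GRCh38.p14, written along the gene's own strand, with CAGAC or its reverse complement GTCTG in capitals. Of the starts of a gene one with the most matches was taken, and among ties the first that the table lists. The PMEPA1 window is chr20:57710578-57710827 on the minus strand, the TGIF1 window chr18:3411759-3412008 on the plus strand and the TGIF2 window chr20:36573214-36573463 on the plus strand.
PMEPA1: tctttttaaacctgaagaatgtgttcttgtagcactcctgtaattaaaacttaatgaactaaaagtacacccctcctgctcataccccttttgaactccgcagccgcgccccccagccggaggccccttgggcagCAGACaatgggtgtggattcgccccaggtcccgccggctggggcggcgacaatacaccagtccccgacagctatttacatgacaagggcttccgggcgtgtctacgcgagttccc
TGIF1: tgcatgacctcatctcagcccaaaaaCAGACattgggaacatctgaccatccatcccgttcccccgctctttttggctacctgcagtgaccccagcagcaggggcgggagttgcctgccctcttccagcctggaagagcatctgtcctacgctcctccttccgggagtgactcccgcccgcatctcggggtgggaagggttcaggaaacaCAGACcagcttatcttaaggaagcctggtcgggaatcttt
TGIF2: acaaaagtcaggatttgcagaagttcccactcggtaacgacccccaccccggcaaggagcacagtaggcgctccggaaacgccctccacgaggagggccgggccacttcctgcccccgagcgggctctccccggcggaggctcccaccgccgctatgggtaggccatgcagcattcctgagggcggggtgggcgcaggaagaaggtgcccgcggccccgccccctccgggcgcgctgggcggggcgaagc

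The PMEPA1 window held 1 match, which began at base −115 from the start. The TGIF1 window held 2, at −224 and −40, and the TGIF2 window held 0. Each was picked as a window with the most matches of its gene, and other starts of PMEPA1 and TGIF1 held 0. SKIL and SMURF1, which did not pass, held 1 match each in their only window, and SMURF2 and ZFYVE9 held 0. A match is not rare, since 38.0% of 35116 RefSeq windows of this length held at least 1, beside 8 of 17 windows of the measured genes, of which SKI had no window. At least 2 matches stood in 8.84% of all windows and in 3 of these 17, all of TGIF1. GGCGC, a GC-rich element searched on both strands, stood in 44.5% of all windows and in 14 of the 17, and the palindrome GTCTAGAC in 0.182% and 0. Windows of 1 gene can overlap. These matches describe letters only, and which start the cells used was not measured.

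TGFβ treatment raised PMEPA1 and TGIF1 and lowered TGIF2, while SKIL, SKI, SMURF1, SMURF2 and ZFYVE9 did not pass the test. On the mean over the probes of each gene, 2 of 8 genes were higher, where 3.03% of all genes were, and 1 was lower, where 2.67% were, at an adjusted p under 0.05 in limma (5.70% in either direction). SKIL had an unadjusted p under 0.05 among the other 5. By probe, 6 of 21 were higher, beside 1.80% of all probes, and 1 was lower, beside 1.53% (3.33% in either direction). The 6 higher probes belong to only 2 genes and are not independent. The median log2 change was 0.084 over the 8 genes and −0.0013 over all genes. The TGFβ1 and vehicle wells did not overlap in 5 of the 8 genes, against 10.3% of all genes, and in 7 of the 21 probes, against 7.26% of all probes.

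**Figure D1:**
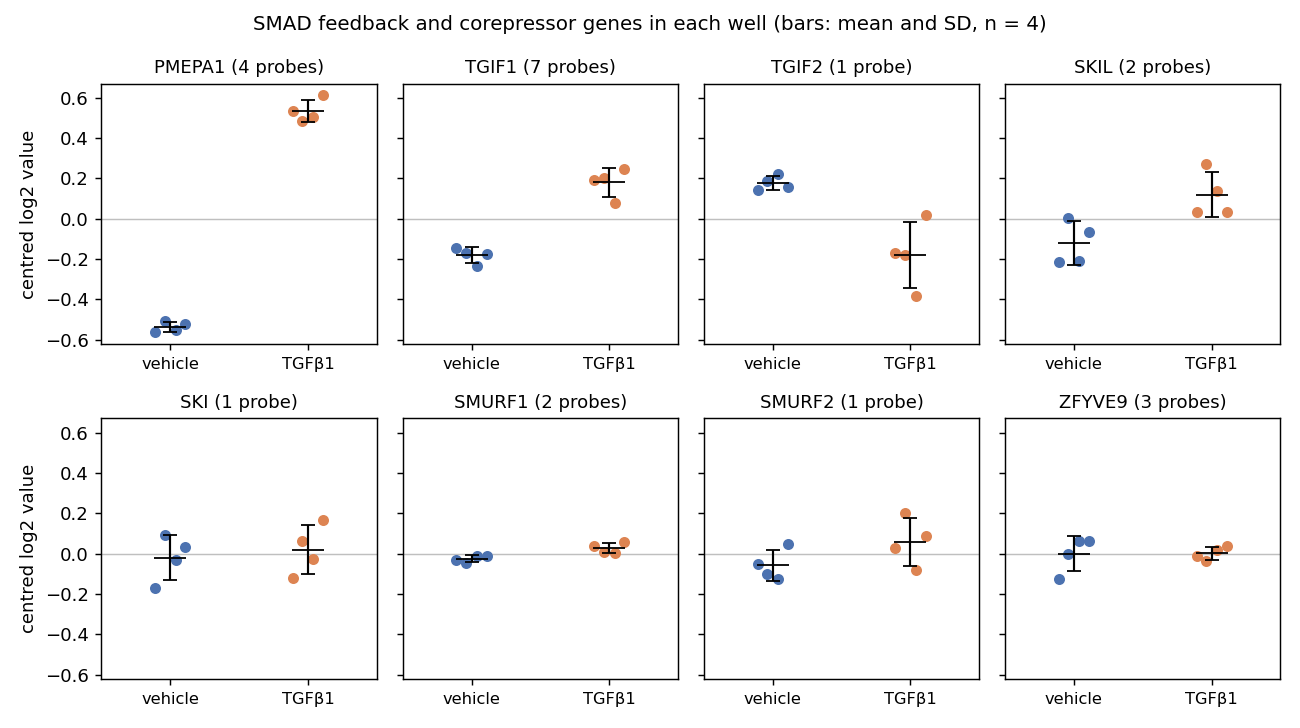
Centred log2 value of each gene in the 4 vehicle wells (blue) and the 4 TGFβ1 wells (orange), as the mean over its probes, with bars for the group mean and SD. PMEPA1 separated the groups by 1.07, TGIF1 by 0.36 and TGIF2 by −0.36, and SKI, SMURF2 and ZFYVE9 overlapped.

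PMEPA1, a membrane protein that keeps SMAD2 and SMAD3 from the receptor complex, had the largest change of the 8 genes. Its gene on chromosome 20 spans 57648396 to 57711472 in GRCh38.p14. The mean over its 4 probes was −0.56, −0.51, −0.55 and −0.52 in vehicle replicates 1 to 4. In TGFβ1 replicates 1 to 4 it was 0.54, 0.49, 0.51 and 0.61. Every treated well was above every vehicle well by more than the range within either group. The group means were 0.54 ± 0.055 (SD, n = 4) and −0.54 ± 0.026 (SD, n = 4), a log2 change of 1.07 (SE 0.057, 95% interval 0.95 to 1.19, adjusted p = 6.5e-08), or 2.10-fold. PMEPA1 passed under every alternative tried. The change was 1.71 when the probe with the largest SD stood for the gene in place of the mean.

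The 4 PMEPA1 probes did not rise equally. ILMN_2309156 read −0.75, −0.83, −0.83 and −1.004 under vehicle and 0.74, 0.82, 0.86 and 0.99 under TGFβ1, a rise of 1.71 (SE 0.082, adjusted p = 3.8e-11), or 3.26-fold. ILMN_1734276, which lies 519 bases from it, read −0.84, −0.58, −0.87 and −0.91 under vehicle and 0.77, 0.72, 0.82 and 0.88 under TGFβ1, a rise of 1.60 (SE 0.084, adjusted p = 1.5e-10). Both are annotated to the same transcript and separated the groups by more than the spread of the wells. ILMN_1657823, placed 60764 bases from the first and annotated to another transcript, read −0.50, −0.52, −0.27 and −0.23 under vehicle and 0.69, 0.25, 0.24 and 0.33 under TGFβ1. Its rise was 0.76 (SE 0.10, adjusted p = 6.1e-05), with TGFβ1 replicate 1 above the other 3 treated wells. ILMN_1675858, annotated to yet another transcript, read −0.16, −0.10, −0.24 and 0.062 under vehicle and −0.060, 0.15, 0.11 and 0.24 under TGFβ1. These groups overlapped, and its difference of 0.22 (SE 0.086) did not pass in limma (adjusted p = 0.26). Across the 4 probes the changes differed (diffSplice of limma, F = 58.5, adjusted p = 5.3e-11, the fourth smallest p of 6688 genes with 2 or more probes, 2.65% of which passed). Which transcripts the cells held was not measured, and dim probes could not be told apart because levels are not kept.

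TGIF1, a homeodomain repressor that binds SMAD2 and SMAD3 and recruits histone deacetylases, rose in the mean over its 7 probes. The gene lies on chromosome 18 from 3412009 to 3459978 in GRCh38.p14. Vehicle replicates 1 to 4 were at −0.14, −0.17, −0.24 and −0.17, and TGFβ1 replicates 1 to 4 at 0.19, 0.20, 0.080 and 0.25. No treated well fell among the vehicle wells, and TGFβ1 replicate 3 was the lowest of the treated wells. The log2 change was 0.36 (SE 0.059, 95% interval 0.23 to 0.49, adjusted p = 0.0020), or 1.28-fold. This value rests on how the probes are joined: with their median, an alternative chosen after seeing the data, it was 0.18 (adjusted p = 0.12) and did not pass, and with the probe of the largest SD it was 1.22.

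Of the 7 TGIF1 probes 3 rose and 4 stayed within 0.05 of 0 in their mean difference. ILMN_2318643, the first sequence shown, read −0.44, −0.69, −0.73 and −0.57 under vehicle and 0.49, 0.46, 0.46 and 1.04 under TGFβ1, a rise of 1.22 (SE 0.11, adjusted p = 4.4e-07), or 2.33-fold. ILMN_2318638, the second sequence, read −0.34, −0.47, −0.54 and −0.51 under vehicle and 0.31, 0.56, 0.40 and 0.60 under TGFβ1, a rise of 0.93 (SE 0.084, adjusted p = 3.2e-07). Both separated the groups widely, and TGFβ1 replicate 4 was the highest treated well in each. ILMN_1702211, annotated to another transcript and placed 7375 bases from the first, read −0.20, −0.085, −0.30 and −0.14 under vehicle and 0.25, 0.071, 0.11 and 0.30 under TGFβ1. Its rise of 0.37 (SE 0.081, adjusted p = 0.011) was smaller, with no overlap between the groups. ILMN_2245292 is annotated to the same transcript as the 2 sequences shown and differed by 0.013 (SE 0.088, adjusted p = 0.99). The remaining probes, ILMN_1754102, ILMN_2247842 and ILMN_1656761, are annotated to 3 further transcripts and differed by 0.021, 0.019 and −0.048 (adjusted p from 0.94 to 0.98), with overlapping groups. Of all 6688 genes with several probes TGIF1 had the smallest p for unequal change among its probes (diffSplice, F = 29.4, adjusted p = 9.5e-12).

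**Figure D2:**
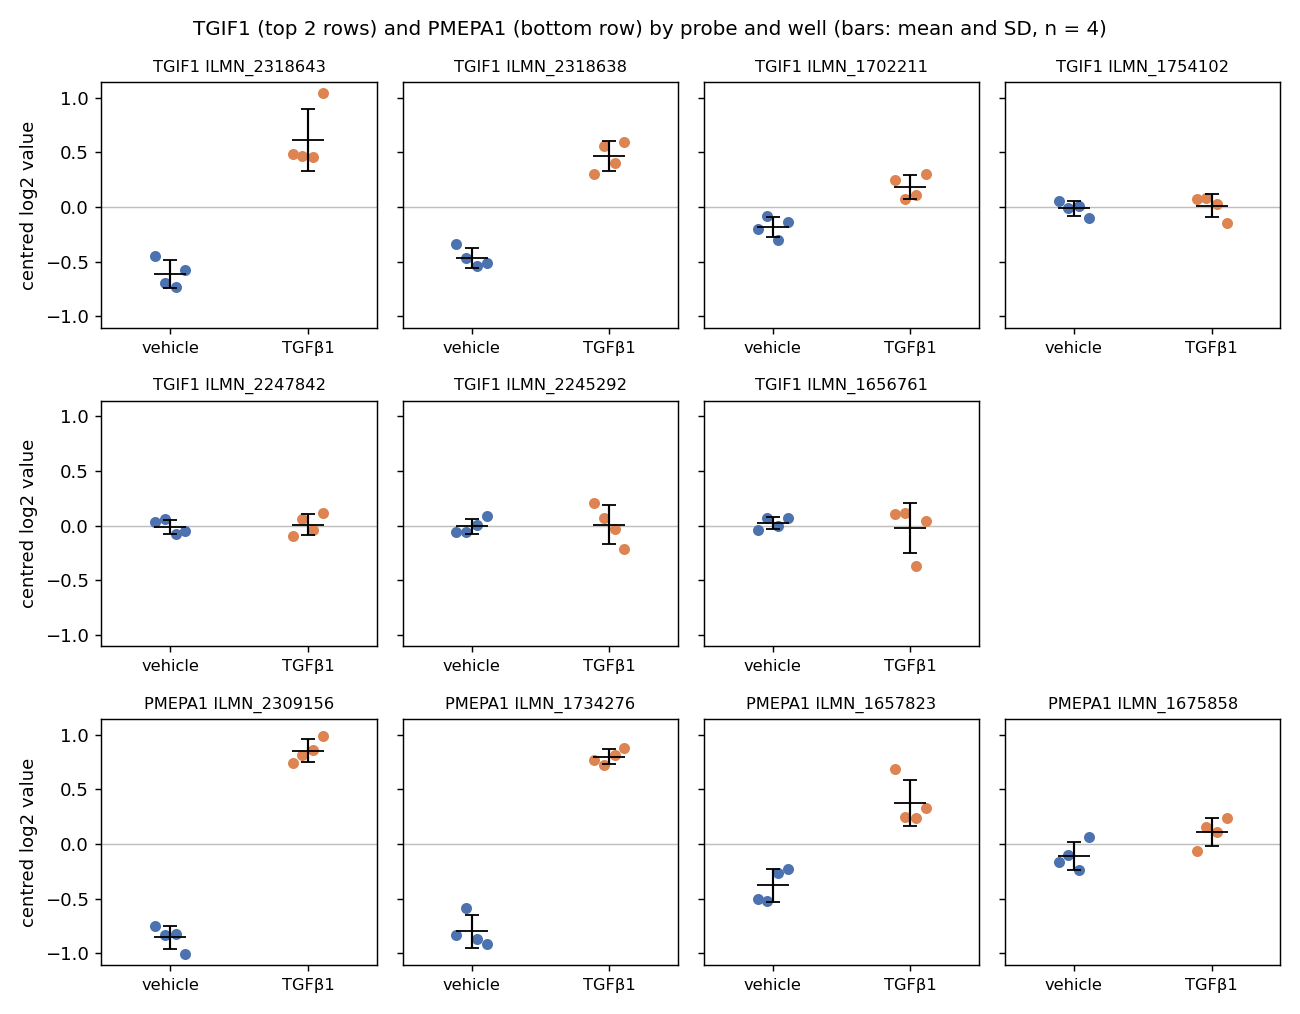
Centred log2 value of every TGIF1 probe (upper 2 rows) and PMEPA1 probe (lowest row) in each vehicle (blue) and TGFβ1 (orange) well, with the group mean and SD. The first 3 TGIF1 probes rose by 1.22, 0.93 and 0.37 and the other 4 lay around 0 in both groups, and PMEPA1 ranged from a rise of 1.71 to a difference of 0.22.

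TGIF2, the close relative of TGIF1 with the same repressor role, fell. Its gene lies on chromosome 20 from 36573464 to 36593950, and the array had 1 probe for it, ILMN_1709044. Vehicle replicates 1 to 4 were at 0.14, 0.19, 0.22 and 0.16, and TGFβ1 replicates 1 to 4 at −0.17, −0.18, −0.38 and 0.018. The groups did not overlap, although TGFβ1 replicate 4 was near the vehicle wells and the treated wells were more spread, with an SD of 0.16 against 0.036. The log2 change was −0.36, or 1.28-fold lower. It passed among all genes (SE 0.077, 95% interval −0.52 to −0.19, adjusted p = 0.013) and among all probes (SE 0.084, adjusted p = 0.019). Among all probes it did not pass without vehicle replicate 2 (adjusted p = 0.058), vehicle replicate 3 (0.060), TGFβ1 replicate 2 (0.055) or TGFβ1 replicate 3 (0.083). Among all genes it passed in each of the 8 leave-outs. SAM, the test that the methods name, did not call the probe.

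The change of TGIF1 minus that of TGIF2 was 0.72, where TGIF1 minus TGIF2 averaged 0.36 ± 0.096 (SD, n = 4) in treated wells and −0.36 ± 0.073 (SD, n = 4) in vehicle wells. An exact permutation test over 70 labellings gave p = 0.029, two-sided, the smallest this design allows, and 0.086 after adjustment over the 3 pairs of relatives compared. The adjusted exact p was 0.086 in 7 of 8 leave-outs. As with all wells, this is the smallest value possible unless another pair shares the smallest exact p. With the replicate number as a block the adjusted exact p was 0.38. Labels can then be swapped only within a replicate number, which leaves too few labellings for any pair to pass. The 0.38 therefore does not show a weaker contrast. Without TGFβ1 replicate 4 the difference was 0.76 and the adjusted p 0.043, where SKIL minus SKI also had the smallest exact p and so lowered the adjustment.

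SKIL, also called SnoN, and its homologue SKI are corepressors that bind the SMAD complex on DNA. The mean of 2 SKIL probes was −0.21, 0.0053, −0.21 and −0.063 under vehicle and 0.033, 0.27, 0.14 and 0.036 under TGFβ1. All treated wells were above all vehicle wells, by a gap smaller than the range within a group. The difference was 0.24 (SE 0.074, 95% interval 0.079 to 0.40) and did not pass over all genes (adjusted p = 0.090 in limma). By probe, ILMN_1736834 differed by 0.34 (SE 0.10, adjusted p = 0.077) and ILMN_2098119 by 0.13 (SE 0.087, adjusted p = 0.66), with overlapping groups in both. ILMN_1736834 passed without vehicle replicate 4 (0.41, adjusted p = 0.049), TGFβ1 replicate 1 (0.42, adjusted p = 0.032) or TGFβ1 replicate 4 (0.38, adjusted p = 0.048).

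SKI, measured by ILMN_1710598 alone, read −0.17, 0.093, −0.032 and 0.033 under vehicle and −0.12, 0.062, −0.026 and 0.17 under TGFβ1. These wells were interleaved. The difference was 0.039 (SE 0.077, 95% interval −0.13 to 0.21, adjusted p = 0.90 over all genes). The SKIL minus SKI difference in change was 0.20 (exact permutation p = 0.11, 0.17 after adjustment over 3 pairs). It was 0.28 without TGFβ1 replicate 4 (adjusted exact p = 0.043), while the adjusted exact p ran from 0.17 to 0.26 in the other 7 leave-outs. With the block, where no pair could pass, the adjusted exact p was 0.38.

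SMURF1 and SMURF2 are HECT-type ubiquitin ligases that mark SMADs and, with inhibitory SMADs, receptors for degradation. The 2 SMURF1 probes averaged −0.032, −0.049, −0.014 and −0.010 under vehicle and 0.036, 0.0081, 0.0041 and 0.057 under TGFβ1. The wells did not overlap, but the difference was only 0.052 (SE 0.054, 95% interval −0.064 to 0.17, adjusted p = 0.76), and each probe alone overlapped. SMURF2, on ILMN_1675429, read −0.050, −0.10, −0.13 and 0.047 under vehicle and 0.026, 0.20, −0.083 and 0.085 under TGFβ1. Its groups overlapped, at a difference of 0.12 (SE 0.071, 95% interval −0.038 to 0.27, adjusted p = 0.51). SMURF2 minus SMURF1 came to 0.064 (exact permutation p = 0.43).

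ZFYVE9, also called SARA, differs in role from the rest, since it anchors SMAD2 and SMAD3 at the receptor and so favours the signal. Its 3 probes averaged −0.12, −0.0031, 0.062 and 0.062 under vehicle and −0.012, −0.037, 0.016 and 0.038 under TGFβ1. The treated wells lay inside the range of the vehicle wells. The difference was 0.0021 (SE 0.061, 95% interval −0.13 to 0.13, adjusted p = 0.995), and the single probes ranged from −0.083 to 0.085. For SKIL, SMURF1 and ZFYVE9 no difference in change among the probes of 1 gene was found (diffSplice, adjusted p of 0.65, 0.91 and 0.84).

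**Figure D3:**
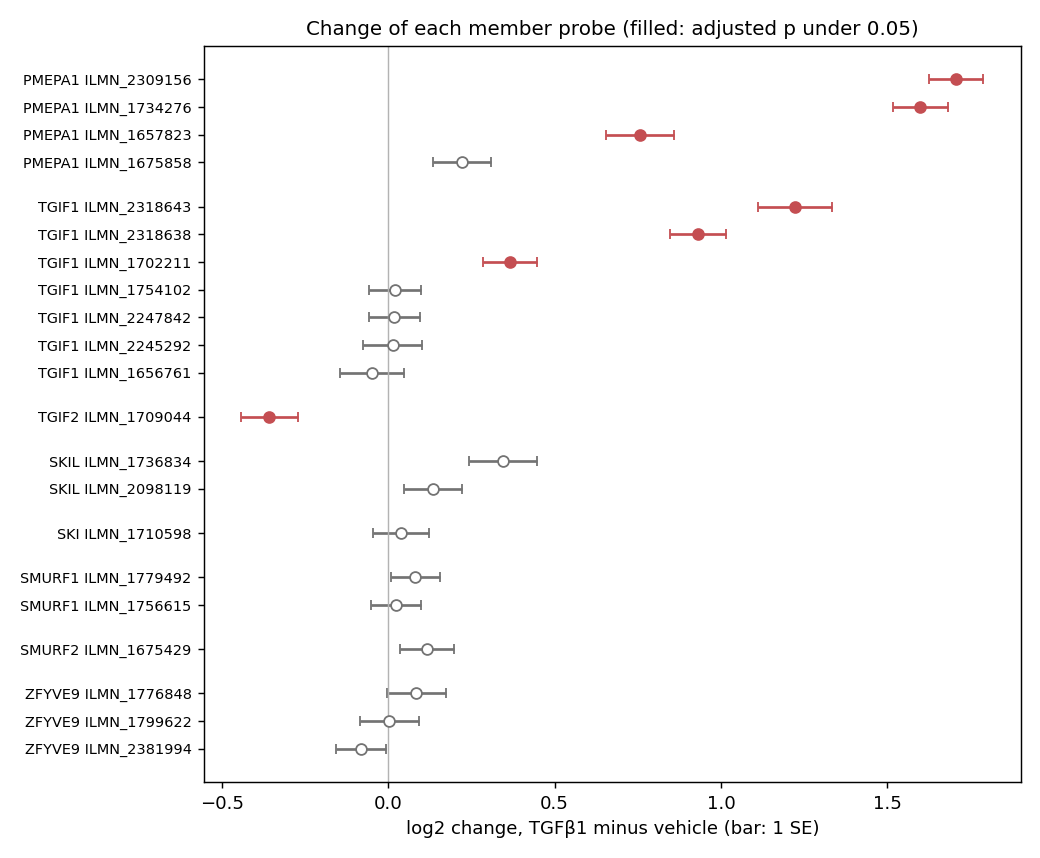
Log2 change (TGFβ1 minus vehicle) of each of the 21 probes, with a bar of 1 SE and filled points at an adjusted p under 0.05. The 6 filled points to the right belong to PMEPA1 and TGIF1, and the 1 to the left is TGIF2 at −0.36.

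Among 16 other inhibitors of TGFβ and SMAD signalling, 3 were higher and 2 lower, beside 3.03% and 2.67% of all genes, with a median of 0.026 (all genes −0.0013). SMAD7, the inhibitory SMAD that blocks the TGFβ receptor, was at −0.19, −0.34, −0.25 and −0.30 under vehicle and 0.26, 0.18, 0.23 and 0.40 under TGFβ1, a rise of 0.54 (SE 0.066, adjusted p = 0.00015). Its relative SMAD6, which acts mainly on BMP signals, rose by 0.53 (SE 0.075, adjusted p = 0.00054), and neither gene's groups overlapped. FKBP1A, which holds the type I receptor inactive, rose by 0.28 (SE 0.070, adjusted p = 0.029), a call lost in 6 of 8 leave-outs (vehicle replicates 1, 2 and 4 and TGFβ1 replicates 2, 3 and 4, adjusted p up to 0.093). PPP1R15A, a phosphatase subunit that can be brought to the receptor, fell by 0.42 (SE 0.081, adjusted p = 0.0061). BAMBI, a receptor decoy without a kinase domain, fell by 0.32 (SE 0.074, adjusted p = 0.018), which did not pass without vehicle replicate 2, TGFβ1 replicate 1 or TGFβ1 replicate 2 (adjusted p of 0.055, 0.053 and 0.066) or with the replicate number as a block (0.056).

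Of 14 partners of the SKI and TGIF corepressors 11 were measured, and 0 were higher and 0 lower in limma (1 at an unadjusted p under 0.05), with changes from −0.19 to 0.12. With 5.70% of all genes passing, a count of 0 among 11 is near the background. The 1 with that p was HIPK2, a kinase that binds SKI, at −0.19 (SE 0.063, adjusted p = 0.11), named after its value was seen. Of 4 relatives of the SKI family 3 were measured, with 0 higher and 0 lower in limma (0 at an unadjusted p under 0.05), from −0.083 to 0.11. With the probe of the largest SD standing for each gene, 1 corepressor partner was lower.

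Of 10 factors that favour SMAD signalling 1 passed, a share near that of all genes (5.70%). DAB2, an adaptor that links receptors to SMADs, read 0.42, 0.36, 0.50 and 0.35 under vehicle and −0.28, −0.44, −0.42 and −0.49 under TGFβ1, a fall of 0.81 (SE 0.065, adjusted p = 3.1e-06) with no overlap. Of 12 receptors and signalling SMADs 0 were higher and 2 lower, beside 3.03% and 2.67% of all genes. TGFBR3, the co-receptor betaglycan, changed by −1.42 (SE 0.063, adjusted p = 1.0e-08). SMAD3, which carries the signal, read 0.17, 0.061, 0.20 and 0.43 under vehicle and −0.39, −0.14, −0.16 and −0.18 under TGFβ1, a fall of 0.43 (SE 0.084, adjusted p = 0.0070). The median of these 12 genes was −0.080. With the probe of the largest SD standing for each gene, 1 of them was higher.

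Textbook SMAD target genes other than the genes above were counted too, from a list chosen with earlier results of these data known. Of 18, 16 were measured, and 10 were higher and 1 lower, beside 3.03% and 2.67% of all genes, with a median of 0.33. SMAD7 is in this list too. IL11, a cytokine, rose by 3.50, the matrix protein gene TGFBI by 2.40 and BHLHE40, a basic helix-loop-helix repressor, by 0.87, while the growth regulator MYC fell by 0.87. PMEPA1 at 1.07 was thus above BHLHE40 and below TGFBI on the scale of log2 change, with no test between them.

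**Figure D4:**
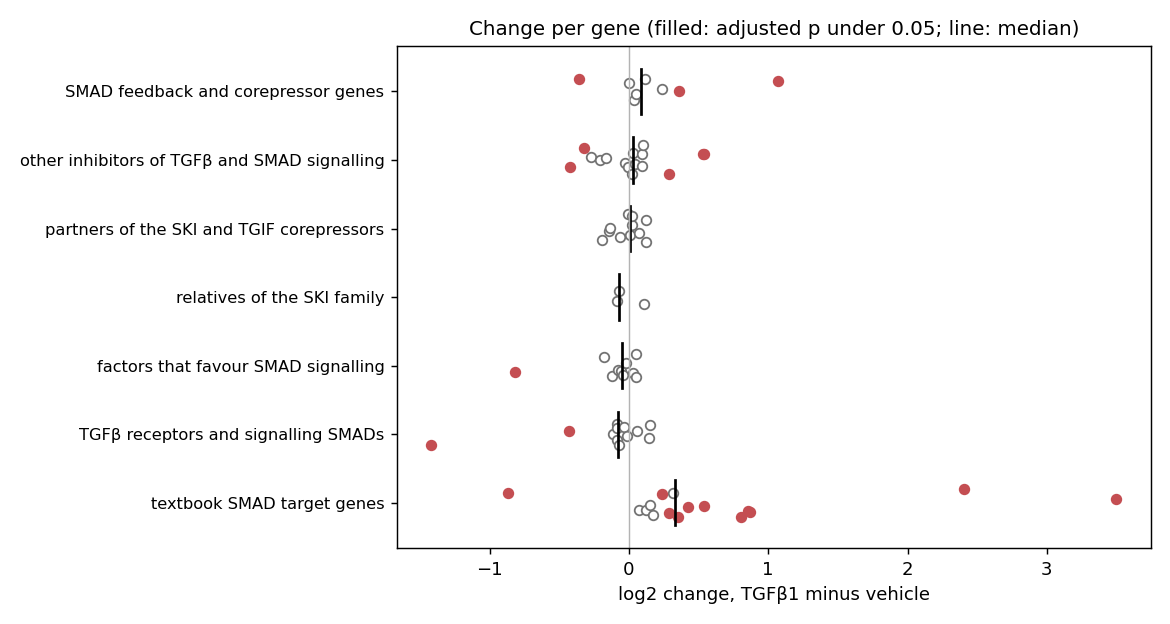
Log2 change (TGFβ1 minus vehicle) of each measured gene in the SMAD feedback and corepressor set and in 6 comparison lists, filled at an adjusted p under 0.05, with a vertical line at each list's median. The median was 0.084 for the feedback and corepressor genes, 0.026 for other inhibitors, −0.080 for receptors and SMADs and 0.33 for textbook targets.

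Marker genes of the melanocyte lineage and of other cell types were read for change only, beside 3.03% of all genes higher and 2.67% lower. Of 8 fibroblast markers 1 was higher (FAP, 0.44, adjusted p = 0.011) and 0 lower, of 7 keratinocyte markers 1 was higher (KRT10, 0.38, adjusted p = 0.0048) and 0 lower, and of 7 leukocyte markers 0 moved in limma (0 at an unadjusted p under 0.05). Of 9 melanocyte lineage markers 0 were higher and 4 lower, the largest falls being TYRP1, a pigment enzyme, by 0.80, the endothelin receptor EDNRB by 0.53 and the lineage factor MITF by 0.39. The MITF call did not hold with the median of its probes (−0.20, adjusted p = 0.17). The other 5 melanocyte lineage markers did not pass in limma. Of these, MLANA, TYR and S100B were at −0.23, −0.17 and −0.090, and PMEL and MIA at 0.053 and 0.15. Whether the fall of the 4 markers had a part in the changes of PMEPA1, TGIF1 and TGIF2 was not tested.

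The genes most like PMEPA1 over the 8 wells were KANK4, CASC15 and IL11, with Pearson r of 0.999, 0.998 and 0.998, and 393 genes had r over 0.9. For TGIF2 they were SLC67A1 (0.989), NOL6 (0.981) and ZFP36 (0.981), and 122 genes had r over 0.9. All 8 points share the split by treatment, which any gene with a change of that direction follows, so these values are a description with no test. NOL6 itself did not pass (−0.18, adjusted p = 0.11), while SLC67A1 (−0.30, adjusted p = 0.014) and ZFP36 (−0.36, adjusted p = 0.013) did.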

How the data were processed

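RNA of 8 wells was labelled and hybridised to Illumina HT-12 arrays. Per the methods, the authors quantile normalised the signals and removed control probes in BASE, then log2 transformed and centred them by gene and sample in MeV. In the deposited log2 values only the centring was checked, with probe means within 1.57e-07 and array means within 1.82e-05 of 0. They hold no signal level or detection value, so no filter on dim probes was possible, and the small number of arrays limits the precision.

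Groups came from the labels. A probe was given a gene where the platform annotation held 1 symbol (30105 probes), while 8 probes with several symbols and 17202 with none entered probe results only. Probes of 1 gene were averaged. The groups were compared in R 4.3.3 with limma 3.58.1 (lmFit, then eBayes), two-sided, without covariates, with Benjamini-Hochberg adjustment over all 47315 probes or 20045 genes and a threshold of 0.05. Unequal change among probes was tested with diffSplice, and differences between relatives by exact permutation. The scripts were tested on simulated data. Python 3.11.15 ran the sequence searches and drew the plots, with numpy 2.4.6, pandas 2.3.3 and matplotlib 3.10.9.

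The genes and lists were chosen with earlier results of these data known, so they are not independent of them. Named are all members with every probe, SMAD7, SMAD3 and TGFBI (a further gene of the rule is not reported here), those list genes that passed with the largest changes (at most 3 that rose and 3 that fell in a list), and the 3 genes most like the member with the largest rise and fall. The alternatives were quantile normalisation again, a common array median, array weights, an adjusted p under 0.01, probes with 1 symbol only, symbols as given, the replicate number as a block, leaving out each array, SAM (coded anew, aimed at a median of 10 false positives), the probe with the largest SD, and, chosen after seeing the data, the median of the probes. Mapping to current symbols changed 0 symbols, so the run with symbols as given could not alter any call. Same-numbered wells did not deviate together (correlations −0.016, 0.026, −0.015 and −0.0039), so the numbers were not taken to pair them. Probe sequences came from the study's probe table, which held 6 of the 21 probes, all among those the study had selected on these arrays, and promoters from RefSeq. Of the 8 measured genes 7 had a promoter window, all but SKI.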

Additional observations from a re-analysis of the deposited data

Results flagged for a closer look

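In 3 of the 52 groups of 4 wells examined, 1 well lay far from the other 3 by Dixon's criterion, and chance alone puts about 1 in 20 groups there. For the TGIF1 probe ILMN_2318643, TGFβ1 replicate 4 read 1.04 where the other treated wells read 0.456 to 0.485. For the TGIF1 probe ILMN_1656761, TGFβ1 replicate 3 read −0.368 and the others 0.046 to 0.118. For the ZFYVE9 probe ILMN_1799622, vehicle replicate 3 read 0.182 and the others −0.0701 to −0.0513. Over all 8 leave-outs the first probe rose by 1.08 to 1.28 (adjusted p in limma at most 8.8e-06), and the other 2 probes did not pass in any.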

How the results depend on the processing

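The calls of PMEPA1 and TGIF1 as higher and of SKI, SKIL, SMURF1, SMURF2 and ZFYVE9 as not passing kept their side of the threshold in all alternatives but one, the median of the probes, which was chosen after seeing the data and left 1 member gene higher, with TGIF1 at 0.18 (adjusted p = 0.12). At an adjusted p under 0.01 limma called 567 probes higher and 392 lower and 360 genes higher and 257 lower, with 0 member probes and 0 member genes lower, since TGIF2 stood at −0.36 (adjusted p = 0.013). SAM called 370 probes lower and 0 of them members. ZFYVE9 changed sign with quantile normalisation again (−0.000437), array weights (−0.00771) and the median of the probes (−0.012), each far inside its error. Leaving out 1 well gave −0.039 to 0.023 for ZFYVE9, −0.012 to 0.086 for SKI (the same on its only probe), 1.05 to 1.09 for PMEPA1, 0.34 to 0.39 for TGIF1, −0.42 to −0.29 for TGIF2, 0.16 to 0.28 for SKIL minus SKI, 0.68 to 0.76 for TGIF1 minus TGIF2 and 0 to 1 for member probes lower. Probes that did not pass also changed sign in some leave-outs, with ranges of −0.0018 to 0.060 for SMURF1 ILMN_1756615, −0.095 to 0.067 for TGIF1 ILMN_1656761, −0.0098 to 0.072 for ILMN_1754102, −0.053 to 0.088 for ILMN_2245292, −0.017 to 0.053 for ILMN_2247842 and −0.045 to 0.065 for ZFYVE9 ILMN_1799622. The causes were not tested. With the replicate number as a block 817 probes were higher and 688 lower, 554 genes were higher and 472 lower, TGIF2 kept −0.36 (adjusted p = 0.032), and of the named genes BAMBI alone lost its call. Only the wells of replicate 2 correlated best with their own number, so this pairing is by number only. PMEPA1 minus LDLRAD4 was not run, because LDLRAD4 had no annotated probe. No signal over background is kept, so a probe without change and a probe too dim to show one cannot be told apart.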
